A study of Mus musculus with 40 samples.

Results

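Pro-B cells lacking Tet3 were compared with wild-type (WT) pro-B cells by RRBS, reduced representation bisulfite sequencing, a method that measures cytosine methylation in CpG-rich fragments of the genome. The table gives a methylation level for each library in tiles of 100 bp. The members are tiles on autosomes that have a value in each of the 5 compared libraries, 3 of WT and 2 of Tet3 knockout (Tet3KO), and 167936 of the 971845 tiles in the table met that rule. WT libraries 1, 2 and 3 came from a male of 8 weeks, a male of 6 weeks and a female of 6 weeks. Tet3KO libraries 7 and 9 both came from males of 7 weeks. Tet3KO library 8, from a female of 7 weeks, had values at only 24600 tiles and served as a side check. All mice were C57/bl, and the knockouts are labelled as inducible and driven by the Mb1 promoter, which is active in the B lineage. Tet2 knockout (Tet2KO) and Tet2/Tet3 double knockout (DKO) pro-B cells, and follicular B cells of the same 4 genotypes, were used where a result turns on them, with 3 libraries labelled in each group. Pro-B Tet2KO libraries 4, 5 and 6 were from females of 8, 6 and 6 weeks, and pro-B DKO libraries 10, 11 and 12 from males of 7 and 7 weeks and a female of 6 weeks. The follicular groups repeat the sexes and ages of the pro-B group of their genotype. Excision of Tet3 could not be checked from methylation values. Age and genotype cannot be told apart here, since no WT mouse was of the age of the Tet3KO mice. Whether the libraries of one group stem from different mice is not in the labels, and p-values here reflect the spread between libraries, which may be technical.

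Tet3 is an enzyme that oxidises 5-methylcytosine to 5-hydroxymethylcytosine and further products, a first step in removing methylation from DNA. Tet2 carries out the same reaction and is also expressed in blood cells, so that either enzyme can act on many of the same sites. Bisulfite sequencing does not separate 5-methylcytosine from 5-hydroxymethylcytosine, and a level here is the sum of both. Pro-B cells are the bone marrow stage that rearranges the immunoglobulin heavy chain locus, and follicular B cells are the mature resting cells of the spleen and lymph nodes. Methylation is lost at many enhancers of the B lineage between those stages.

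The 5 compared libraries had values at 314437 to 425669 tiles, a rough measure of depth, because the table holds no read counts. A level of 0 or 100% can therefore rest on few reads, and no counting interval could be given. Library 8 shared 17828 tiles with the members (10.6%), and there its mean level was 11.2%, against 10.6, 10.9 and 10.8% in the WT libraries and 10.8 and 11.1% in Tet3KO libraries 7 and 9. Any pair of libraries differed by several points per tile. The mean absolute difference was 5.88 to 6.58 points within WT, 6.50 points within Tet3KO and 5.78 to 7.05 points between the genotypes. Points are percentage points of methylation throughout. The per-tile SD, as a root mean square, was 9.83 points in pro-B WT and 10.2 points in pro-B Tet3KO, against 4.57 to 5.68 points in the 4 follicular groups. Marker genes of the cell type were not examined, because the coordinates are of build mm9 and no mm9 annotation was used here. For the same reason regions carry coordinates but no gene names or sequences.

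Average methylation in Tet3KO pro-B cells lay within the range of the WT libraries or close to it. The mean level over all member tiles was 31.5, 32.2 and 32.0% in WT libraries 1, 2 and 3. It was 31.8 and 32.4% in Tet3KO libraries 7 and 9. The Tet3KO mean was 0.213 points higher, the differences between single libraries ran from -0.354 to 0.889 points, and the groups overlapped (two-sided exact permutation test over libraries, p = 0.6). With 3 libraries against 2 the smallest p this test can give is 0.1, so no level comparison could pass a threshold of 0.05. A total of 10 sets of tiles were compared in this way, and adjusted over them a p of 0.1 became 0.25.

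Tiles were next grouped by their level in follicular WT libraries, which took no part in the comparison. Over 18334 tiles of 20 to 80% there, the pro-B WT libraries averaged 43.1, 47.1 and 45.6%, and Tet3KO libraries 7 and 9 averaged 44.5 and 47.3%. The groups overlapped, and the difference of 0.653 points had pairs from -2.61 to 4.24 points (exact permutation p = 0.8). Over 45937 tiles above 80%, the group means were both 91.5% (exact permutation p = 1). Over 99090 tiles under 20%, WT libraries averaged 1.74, 1.85 and 1.82% and Tet3KO libraries 1.92 and 2.21%. Both Tet3KO values were above all 3 WT values at these unmethylated tiles, by 0.260 points on average, with the smallest p available (exact permutation p = 0.1). The difference was 0.405 points without Tet3KO library 7 and 0.115 points without library 9, and that of the median over tiles was 0.

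Finer bins of the follicular WT level were read in the same way. In the bin from 0 to 10%, with 92456 tiles, the Tet3KO libraries averaged 1.24 and 1.46% against 1.11 to 1.18% in WT, with no overlap. In each of the other 9 bins the groups overlapped, with Tet3KO libraries 7 and 9 often on opposite sides of the WT mean. In the bin from 30 to 40%, for example, library 7 lay at 27.4% and library 9 at 31.1%, with WT from 25.4 to 29.6%. The groups also overlapped in dense and in sparse stretches of the table. Tiles with at least 8 other tiles within 1000 bp, typical of CpG islands, averaged 12.94% in WT and 13.02% in Tet3KO (86773 tiles, exact permutation p = 0.8). Tiles with at most 2 such neighbours averaged 69.2% and 69.6% (23513 tiles, exact permutation p = 0.5).

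**Figure D1:**
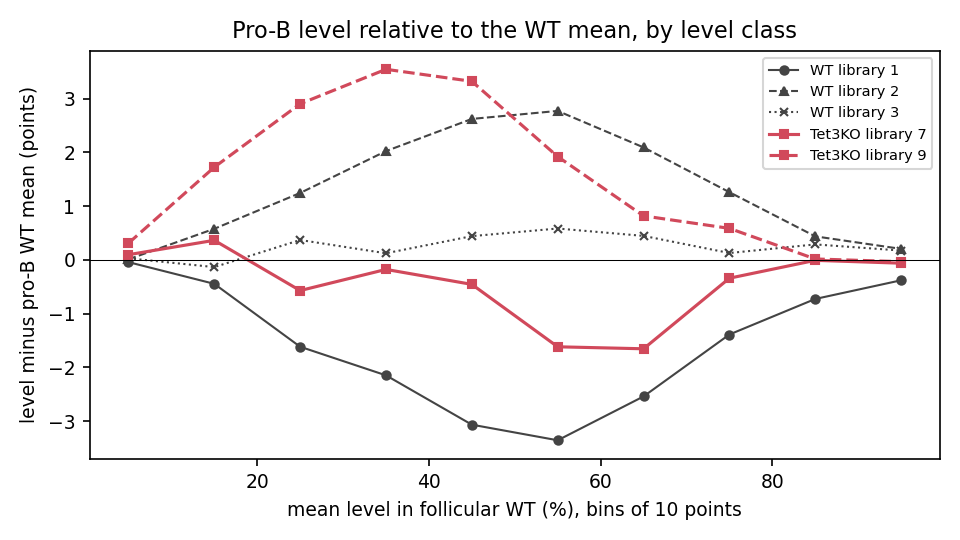
Mean level of each library minus the mean of the 3 pro-B WT libraries (points) in bins of 10% of the follicular WT level (percent). Tet3KO library 9 lies above library 7 in every bin, and both lie above all WT libraries only in the bin from 0 to 10%.

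A higher level in Tet3KO appeared at a small set of sites chosen in other cells. The model limma, fitted per tile over 23 libraries in 8 groups, called 238 member tiles higher in follicular DKO than in follicular WT (0.145% of 164079 tested), and 3 lower (0.00183%). A call needed a Benjamini-Hochberg adjusted p under 0.05 and a difference of at least 20 points. At those 238 tiles the pro-B WT libraries averaged 27.6, 29.3 and 29.1%, and Tet3KO libraries 7 and 9 averaged 37.8 and 39.2%. Both Tet3KO libraries were above all 3 WT libraries, by 9.83 points on average, with pairs from 8.49 to 11.6 points (exact permutation p = 0.1, the smallest available). The difference was 9.15 to 10.5 points when each library was left out in turn. Pro-B and follicular libraries of a genotype carry matching ages in the labels and may come from the same mice, which was not tested.

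Most of the 238 tiles had the higher mean in Tet3KO. It was higher at 159 and lower at 52 tiles, with a median difference of 6.72 points, where 36.8% of all members were higher and 32.4% lower. The pro-B WT level was under 20% at 137 of the 238 tiles, which left little room for a lower value, and above 80% at 31. Both Tet3KO libraries were above all WT libraries at 71 tiles (29.8%), where 5.51% of all members were. Both were below all WT libraries at 7 tiles (2.94%), against 3.78% of all members. Among members of intermediate level in follicular WT, the shares were 10.5% above and 9.05% below, and limma called 0.333% higher and 0.295% lower. The limma call for higher in pro-B Tet3KO held at 8 of the 238 tiles (3.36%), against a background of 0.0899% of all members. Both calls come from the same fit and share the spread of each tile. A tile of small spread is thus favoured in both, and the background was not matched for spread.

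The single knockouts lay between WT and DKO at these sites. Pro-B Tet2KO averaged 36.0% ± 2.05 (SD, n = 3), and Tet3KO exceeded it by 2.52 points, with overlap and pairs from -0.217 to 5.24 points (exact permutation p = 0.3). Pro-B DKO averaged 58.0% ± 5.22 (SD, n = 3), above Tet3KO by 19.5 points with pairs from 15.1 to 26.2 points (exact permutation p = 0.1). In the 16 comparisons made with or between the other pro-B genotypes, a p of 0.1 became 0.267 when adjusted over them. The tiles were also grouped by their level in pro-B Tet2KO. At 112 tiles under 20% there, WT averaged 4.73% and Tet3KO 11.005%. At 76 tiles of 20 to 80% the means were 35.6% and 52.9%, a difference of 17.2 points. At 40 tiles above 80% they were 84.5% and 90.3%, and at none of the 3 levels did the genotypes overlap.

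The 8 regions with the largest follicular DKO difference, each with at least 2 such tiles, differed among themselves in pro-B Tet3KO. At chr14:34003101-34003400 (mm9), WT libraries 1, 2 and 3 read 4.81, 4.92 and 5.27%, and Tet3KO libraries 7 and 9 read 14.96 and 31.1%. Both were above WT and below DKO (92.1, 90.8 and 79.1%), and of them only library 9 lay in the range of Tet2KO (21.6, 38.2 and 32.4%). At chr13:41642101-41642300 the Tet3KO libraries read 50.9 and 88.1%, but WT library 1 at 61.6% lay between them, with libraries 2 and 3 at 0 and 11.8%. No tile of the 8 regions was called for pro-B Tet3KO, and the lowest limma adjusted p was 0.0718, in the chr13 region.

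In the other 6 regions the Tet3KO libraries did not both lie above WT. At chr11:5058301-5058500, Tet3KO read 0 and 1.79% against 5.33, 2.57 and 2.20% in WT, while the single DKO library with values read 50%. At chr19:37546001-37546200, Tet3KO read 4.24 and 0% against 0, 5.77 and 0.685% in WT, and DKO read 69.1, 87.5 and 25%. At chr11:44306901-44307200, Tet3KO read 12.9 and 11.3%, inside the WT range of 1.87 to 15.1%, and DKO read 72.0 to 91.6%. The Tet3KO difference was 7.80 points at chr5:123774301-123774600, 2.93 points at chr15:57637901-57638100 and 15.4 points at chr7:106036501-106036700. In each of these 3 a Tet3KO library lay inside the WT range.

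**Figure D2:**
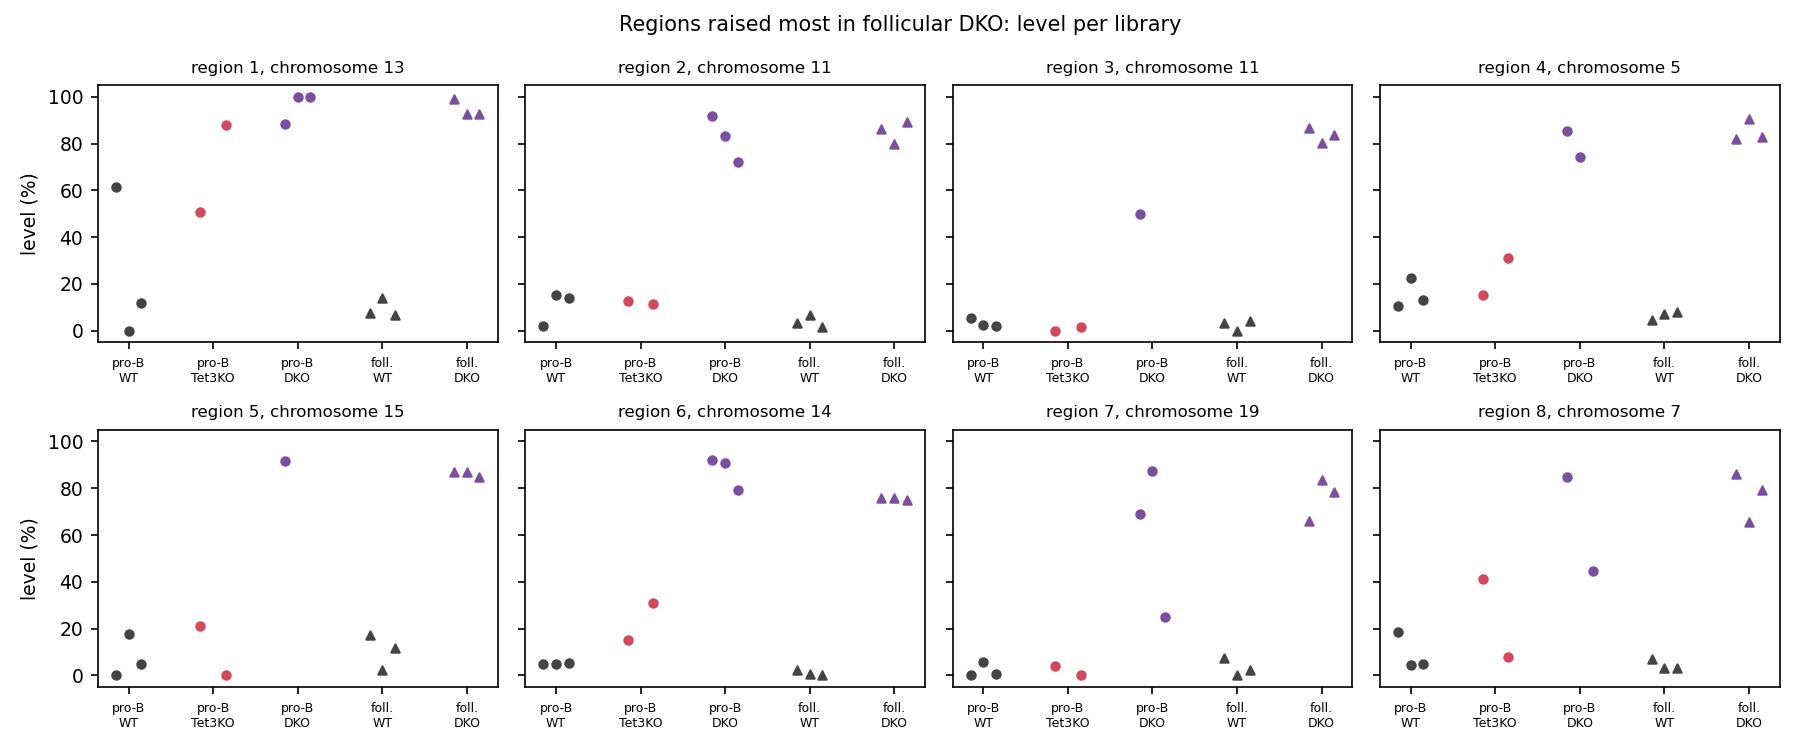
Methylation level (percent) of single libraries of pro-B WT, Tet3KO and DKO and of follicular WT and DKO at the 8 regions with the largest gain in follicular DKO. In pro-B cells the DKO libraries lie highest in each region, and of the 8 regions only the one on chromosome 14 has both Tet3KO libraries above all WT libraries.

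Follicular Tet3KO itself had 14 member tiles called higher than follicular WT (0.00851% of 164541) and none called lower, where 6768 tiles had an unadjusted limma p under 0.05. At those 14 tiles, pro-B WT libraries averaged 74.0, 67.3 and 69.6%, and pro-B Tet3KO libraries 86.7 and 83.8%. Both Tet3KO values were higher, by 14.98 points with pairs from 9.82 to 19.5 points (exact permutation p = 0.1). The Tet3KO mean was higher at 12 tiles and lower at none, where 36.8% of all members were higher and 32.4% lower. Both Tet3KO libraries were above all WT libraries at 6 tiles (42.9%), against 5.51% of all members. The pro-B WT level was under 20% at 1 of the 14 tiles, 20 to 80% at 6 and above 80% at 7. The shares of all members were not matched for level or spread. Tet3KO exceeded pro-B Tet2KO (76.2% ± 1.15, SD, n = 3) by 9.09 points without overlap (exact permutation p = 0.1). It did not separate from DKO, at 88.6% ± 3.95 (SD, n = 3), with pairs from -2.68 to 7.26 points (exact permutation p = 0.3). DKO libraries 10, 11 and 12 had values at 13, 14 and 9 of the 14 tiles. Follicular WT, part of the choice of these tiles, averaged 22.02 to 23.4% there and follicular Tet3KO 65.5 to 68.7%, so that the tiles were already more methylated in pro-B WT than in follicular WT.

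**Figure D3:**
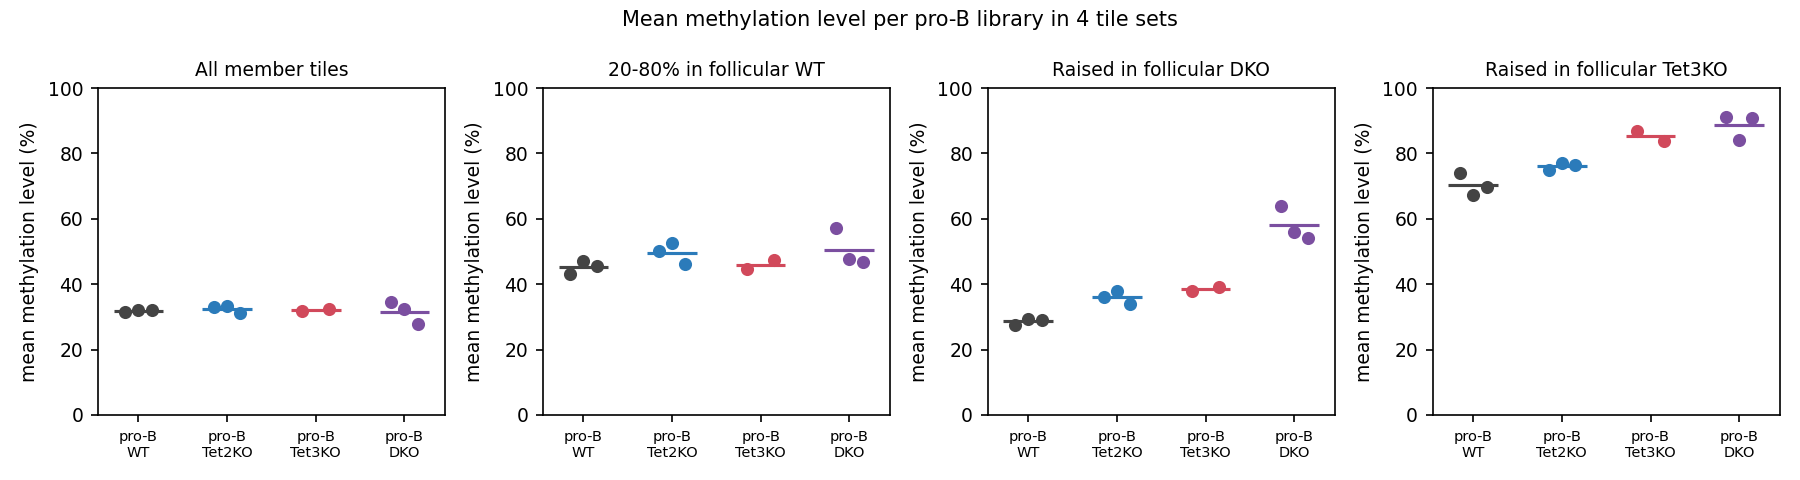
Mean methylation level (percent) per library in the 4 pro-B genotypes, over all member tiles, over tiles of 20 to 80% in follicular WT, and over tiles called higher in follicular DKO (238) and in follicular Tet3KO (14); horizontal lines are group means and library 8 is not drawn. WT and Tet3KO overlap over all tiles (31.5 to 32.2% against 31.8 and 32.4%) and lie apart at the DKO tiles (27.6 to 29.3% against 37.8 and 39.2%) and the Tet3KO tiles.

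Of those 14 tiles, 2 were called in both stages (14.3%), where 0.0899% of all members were called higher in pro-B Tet3KO. Both calls share the fit and the spread of each tile. The 2 tiles were also among the 238 raised in follicular DKO, and both sets were called against the same follicular WT libraries. These 2 tiles and those that follow were singled out after their values were seen. At chr19:46943201-46943300 the WT pro-B libraries read 38.5, 34.0 and 41.3%, Tet3KO libraries 76.3 and 82.1%, Tet2KO 54.5, 61.7 and 55.6%, and DKO 93.3, 86.4 and 90.5%. The 4 genotypes did not overlap, in the order WT, Tet2KO, Tet3KO and DKO from low to high. In pro-B cells the Tet3KO difference was 41.3 points (SE 3.83, limma adjusted p = 5.2e-05), and 0.0060 in a fit of pro-B libraries alone. In follicular cells the tile read 32.9, 30.6 and 36.5% in WT, 58.3, 52.2 and 58.2% in Tet3KO, and 76.9, 80 and 75.1% in DKO. Follicular Tet2KO, at 25.6, 36.7 and 36.7%, overlapped WT there.

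The second tile called in both stages, chr5:144763301-144763400, had WT pro-B libraries at 63.5, 42.9 and 45.8% and Tet3KO libraries at 89.5 and 93.3%. The difference was 40.7 points (SE 5.62, limma adjusted p = 0.0024), and it was not called in the fit of pro-B libraries alone. Another tile, chr5:115003001-115003100, was raised in follicular DKO and was also called in pro-B Tet3KO. WT read 42.3, 42.9 and 40.6% and Tet3KO 97.0 and 86.2%, with Tet2KO at 45.9, 73.9 and 64.0%. At chr3:53319201-53319300 all 3 WT libraries read 0 and the Tet3KO libraries 31.7 and 63.4%, a tile where DKO read 59.8 and 71.4%. Of the 8 tiles called both in follicular DKO and in pro-B Tet3KO, only the chr19 tile kept its pro-B call with pro-B libraries alone.

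Across all members, limma called 151 tiles higher in pro-B Tet3KO (0.0899%) and 323 lower (0.192%). Few of these calls held when only pro-B libraries were fitted. With the pro-B libraries alone in the fit, 9 tiles were called higher (0.00536%) and 41 lower (0.0244%), of which 8 and 39 were among the 151 and 323. With only the 5 compared libraries, 8 were called higher and 31 lower, sharing 2 and 23. The fit over all groups draws on the follicular libraries, whose spread was smaller, as given above. Fits of fewer libraries also had fewer residual degrees of freedom, 3 with the 5 libraries against at most 15 over all groups. How much of the loss of calls came from each was not tested. The 2 genotypes were without overlap and at least 20 points apart, with no test, at 2128 higher (1.27%) and 2004 lower tiles (1.19%). An unadjusted p under 0.05 was reached by 16330 members (9.72%) in the fit over all groups and by 4.02% in the fit of pro-B libraries. Leaving out a Tet3KO library, which leaves 1 library assumed to vary like the other groups, raised the counts to 1188 higher and 2386 lower without library 7, and to 431 and 1576 without library 9. Leaving out WT library 1 gave 295 higher and 306 lower, library 2 gave 394 and 352, and library 3 gave 380 and 384. On the logit scale the counts were 239 and 243, so under these 4 settings the higher and lower counts were close to each other.

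The tiles called higher had a median difference of 36.7 points, and at 17 of the 151 all WT libraries read 0, as they did at 36.9% of all members. Those called lower had a median of -35.8 points, and at 98 of the 323 (30.3%) all WT libraries read 100%, where 4.71% of all members did. Dense stretches held 22.5% of the higher and 16.7% of the lower tiles, and 51.7% of all members. Those values describe the tiles and were not tested. Neighbours within 500 bp of the called tiles, not themselves called, differed by 3.75 points on the higher side (195 tiles, 47.7% of them higher). On the lower side they differed by -3.29 points (342 tiles, 51.8% of them lower). Of all members, 36.8% were higher, 32.4% lower and 30.8% without a difference.

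The follicular libraries enter the spread of the fit over all groups, but their levels do not enter the difference called. Tiles with a small follicular spread were therefore favoured in the calls. At the 151 higher tiles, follicular WT averaged 55.9% ± 0.674, follicular Tet3KO 60.7% ± 0.788 and follicular DKO 64.8% ± 0.798 (SD, n = 3 each). Over the 149 of them with complete follicular values, Tet3KO exceeded WT by 4.81 points with pairs from 3.16 to 6.35 points (exact permutation p = 0.1). All 3 follicular Tet3KO libraries were above all 3 WT libraries at 35 of the 149 tiles (23.5%), against 5.75% of all members, and below at 2 (1.34%), against 2.34%. The shares of all members were not matched for level or spread. In follicular WT 60.7% of all members were under 20%, and 39 of the 151 higher tiles were. At the 323 lower tiles, follicular WT averaged 86.8% ± 0.186 and follicular Tet3KO 87.5% ± 0.425 (SD, n = 3 each). Over 296 of them with complete values the follicular difference was 0.858 points in the other direction, with overlap (exact permutation p = 0.2). At tiles called with pro-B libraries alone and with complete follicular values, the follicular difference was 6.13 points at 8 higher tiles and -0.269 points at 35 lower tiles. Of the lower tiles of the fit over all groups, follicular Tet3KO was above WT without overlap at 28 of the 296 tiles (9.46%) and below at 10 (3.38%).

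The means of the other pro-B knockouts lay between WT and Tet3KO at the lower and at the higher tiles. There the WT libraries averaged 92.2% ± 0.648, Tet2KO 87.1% ± 0.390 and DKO 86.0% ± 1.94 (SD, n = 3 each), and Tet3KO libraries 54.2 and 49.8%. At the higher tiles WT averaged 37.2% ± 2.41, Tet2KO 57.3% ± 0.615 and DKO 59.9% ± 3.53 (SD, n = 3 each), and Tet3KO libraries 76.2 and 78.5%. DKO library 12 had values at only 192 of the 323 lower and 113 of the 151 higher tiles. The WT and Tet3KO values chose these tiles, so that the gaps to the other knockouts follow in part from the choice. All these levels are given as a description. Library 8 had values at 6 higher and 8 lower tiles and lay nearer the Tet3KO than the WT mean at 2 and 3 of them. Its mean was 38.5% at the 6 tiles, between WT at 26.8% and Tet3KO at 60.3%, and 66.7% at the 8 tiles, between 87.1% and 55.1%.

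**Figure D4:**
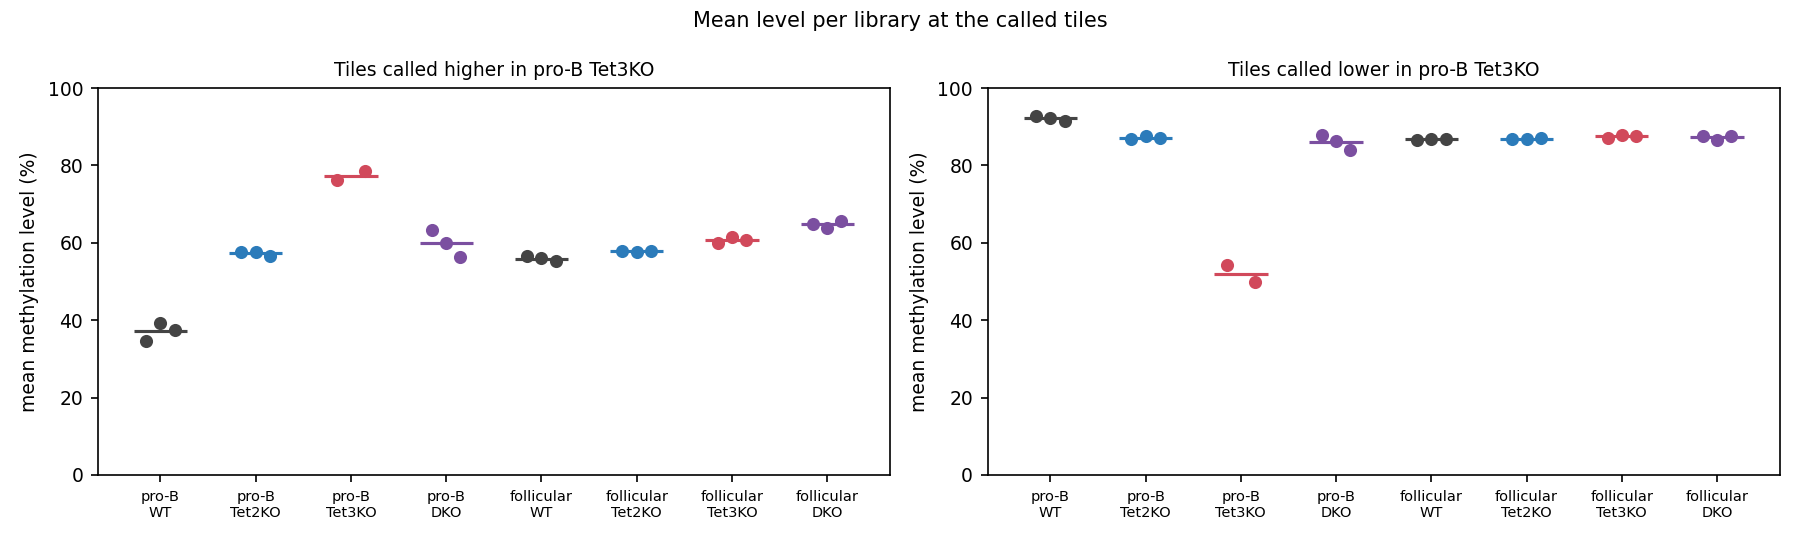
Mean level (percent) per library at the tiles called higher (151) and lower (323) in pro-B Tet3KO, in all 8 groups; library 8 is not drawn. The WT and Tet3KO pro-B libraries chose the tiles and lie apart by construction, while follicular Tet3KO lies above follicular WT at the higher tiles (60.7 against 55.9%) and not below it at the lower tiles (87.5 against 86.8%).

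Called tiles of one direction within 500 bp were joined, which gave 146 higher regions, 5 of them with at least 2 called tiles, and 320 lower regions, 3 with at least 2. At chr6:100762201-100762400 the WT libraries read 65.1, 72.1 and 63.3% and Tet3KO libraries 91.5 and 96.0%. The difference was 26.9 points (SE 2.55 to 4.51 for its tiles, limma adjusted p at most 0.0077), and Tet2KO (74.5 to 81.2%) and DKO (76.5 to 82.1%) lay between. In the fit of pro-B libraries only its first tile kept the call, and the larger adjusted p was 0.0985. At chr5:112799001-112799200 WT read 46.3, 39.9 and 42.8% and Tet3KO 90.6 and 79.2%, with Tet2KO at 69.6 to 77.8%. Follicular DKO was also high there, at 93.8% ± 1.19 against 66.9% ± 2.06 in follicular WT (SD, n = 3), though no tile passed that test (lowest limma adjusted p = 0.0595). The pro-B call of this region was lost with pro-B libraries alone (larger limma adjusted p of its tiles 0.452).

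The other higher regions differed in their WT level, which was near 0 in those on chromosomes 6 and 9. At chr6:146119501-146119700 the WT libraries read 0, 0 and 3.09%, Tet3KO 31.1 and 37.4%, Tet2KO 3.50 to 9.07% and DKO 12.4 to 15.1%. Tet3KO was above DKO in this region in pro-B cells, whereas follicular DKO read 36.1 to 44.2% and follicular Tet3KO 11.6 to 21.9%. At chr9:61326901-61327100 the WT libraries read 0, 0 and 1.65% and Tet3KO 35.8 and 16.9%, while library 8 read 0 there. At chr10:24918501-24918700 WT varied between 0 and 33.3% and Tet3KO read 96.7 and 70.01%, and follicular groups averaged 63.9 to 68.6%. The single tile chr3:126649301-126649400 had the widest difference, 77.4 points, with WT at 0, 67.9 and 0% and both Tet3KO libraries at 100%. The other pro-B knockouts were also high there, with Tet2KO at 100, 100 and 85.1% and DKO at 100, 96.6 and 100%. Each of these 4 lost its call in the fit of pro-B libraries.

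Of the lower regions, chr3:85903101-85903200 kept its call with pro-B libraries alone, a single tile with WT at 100% in all 3 libraries and Tet3KO at 23.1 and 0%. The difference was -88.5 points (SE 5.79, limma adjusted p = 2.2e-06, and 0.0167 in the fit of pro-B libraries). Tet2KO read 82.8 to 100%, both DKO libraries with a value 100%, and the follicular groups averaged 92.5 to 99.6%. At chr12:118625501-118625700 the WT libraries read 75.2, 83.3 and 76.1% and Tet3KO 32.5 and 36.6%. Follicular levels there were near 80% in WT (80.7% ± 1.94, SD, n = 3) and 85.7% ± 3.95 (SD, n = 3) in Tet3KO. The call of this region was lost with pro-B libraries alone (larger limma adjusted p of its tiles 0.338). At chr10:117563301-117563500 WT read 100, 100 and 94.6% and Tet3KO 75.5 and 70.8%. One tile of it, chr10:117563401-117563500, kept its call in the fit of pro-B libraries.

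The rest of the named lower regions were extreme in at least 1 library. At chr10:61868201-61868400 WT ranged from 58.9 to 94.0% and Tet3KO read 8.70 and 8.33%. At chr13:114453601-114453700 WT read 100, 83.3 and 100% and both Tet3KO libraries 0, and at chr17:64695601-64695700 WT read 93.3, 100 and 100% and Tet3KO 0 and 20%. None of these 3 kept its call with pro-B libraries alone (limma adjusted p from 0.0972 to 0.471). In follicular Tet3KO the 3 averaged 61.5, 78.7 and 88.3%.

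**Figure D5:**
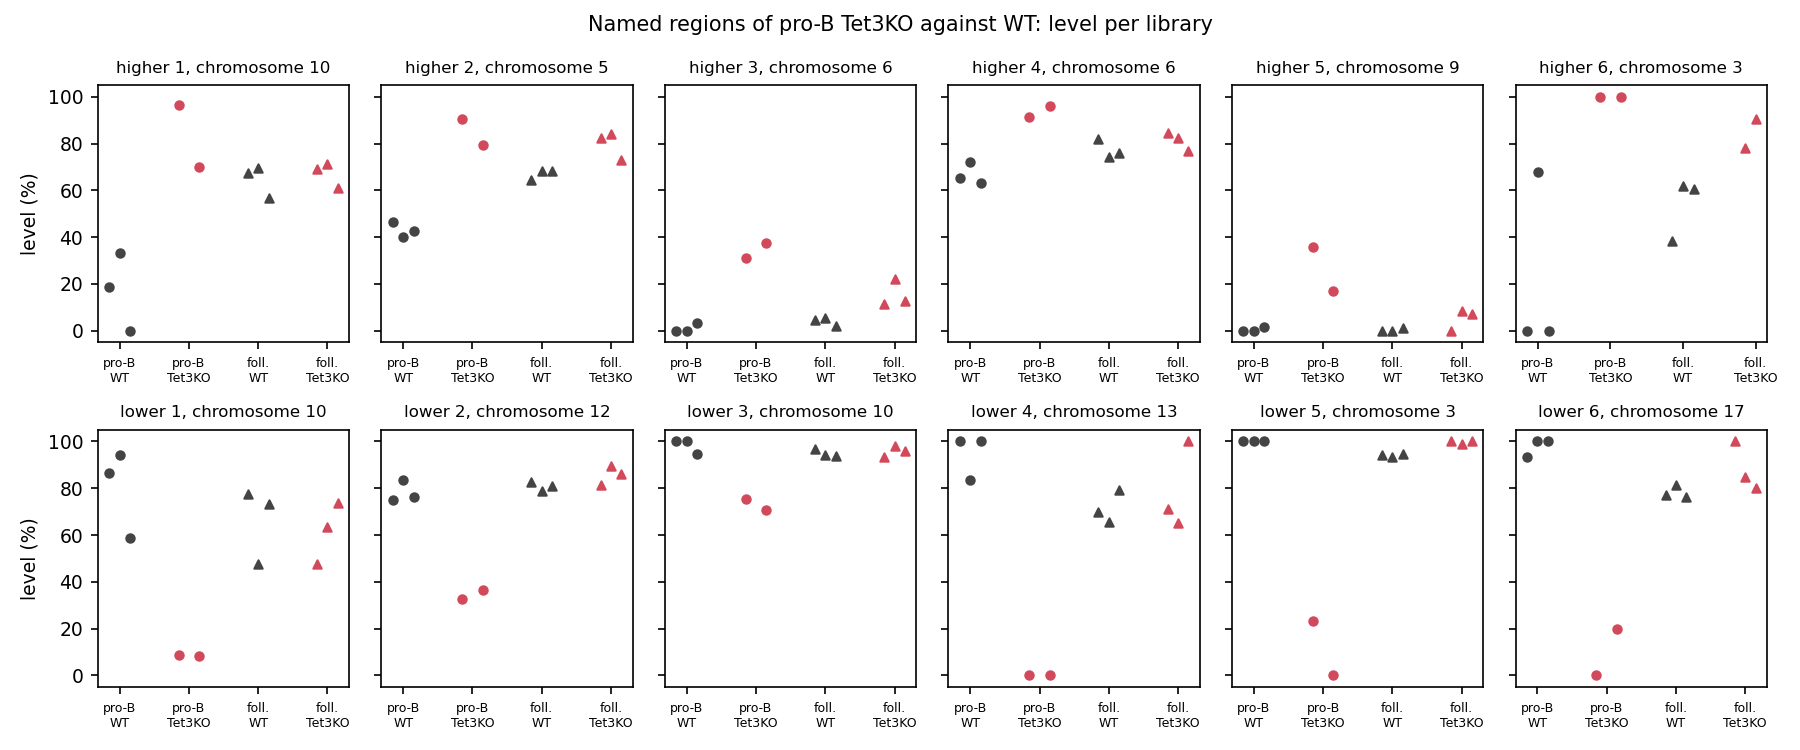
Methylation level (percent) of single libraries of pro-B WT and Tet3KO (circles) and follicular WT and Tet3KO (triangles) at the 6 named higher and 6 named lower regions. Pro-B Tet3KO and WT do not overlap in any of them, which the choice of regions required; the spread among WT libraries is widest on chromosome 3 (0 to 67.9%) among the higher regions.

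Direct tests against the other knockouts gave more lower than higher tiles for Tet3KO. Against pro-B Tet2KO, Tet3KO was higher at 47 tiles (0.0281% of 167046) and lower at 233 (0.139%), and 10 and 34 with pro-B libraries alone. All Tet2KO libraries were from females and both Tet3KO libraries from males, and with sex as a term in the fit over all groups the counts were 21 and 104. At the 233 tiles WT averaged 86.3%, Tet2KO 90.7% and Tet3KO 47.0 and 51.4%. The Tet2KO and Tet3KO values chose these tiles, and the levels are given as a description. A region not yet given was chr7:7230901-7231100, where Tet2KO read 71.1, 77.2 and 69.6% and Tet3KO 38.6 and 46.5%, with WT at 56.2 to 74.0%. That region did not keep its call at every tile with pro-B libraries alone (larger limma adjusted p of its tiles 0.509). Against pro-B DKO, the DKO was higher at 357 tiles (0.217% of 164531) and lower at 79 (0.048%), and 46 and 10 with pro-B libraries alone. These comparisons share the Tet3KO libraries with the one against WT.

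The regions named for DKO against Tet3KO were chosen for their difference, so that low Tet3KO values were part of the choice. With pro-B libraries alone, none of these regions kept its call at every tile. The highest limma adjusted p of their tiles was then 0.0598, 0.751 and 0.145, in the order given below. At chr7:139883701-139884000 every Tet3KO and Tet2KO library, library 8 included, read 0, WT read 2.63, 0 and 0%, and DKO read 83.3, 91.7 and 100%. In follicular cells neither WT nor the single knockouts were at 0 there. WT read 11.1 to 18.3%, Tet2KO 8.77 to 21.7% and Tet3KO 13.3 to 25%, with overlap. At chr7:118067001-118067400, a region of 4 called tiles, Tet3KO read 4.76 and 21.3%, WT 2.82 to 6.82%, and DKO 89.0 to 91.8%. At chr5:123774301-123774500 Tet3KO read 3.72 and 5.81%, inside the WT range of 0 to 12.5%, and DKO 85.5 and 79.0%. It is part of chr5:123774301-123774600, given above. Over the 3 tiles of that longer region Tet3KO libraries 7 and 9 read 15.1 and 31.1%, against 10.5 to 22.4% in WT.

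The Tet3KO difference was also compared between the stages, by a limma interaction of genotype and stage over 164541 members. The pro-B difference was above the follicular one at 12 tiles (0.00729%) and below it at 82 (0.0498%). At the 82 tiles pro-B WT averaged 96.6% ± 0.356 (SD, n = 3) and the pro-B Tet3KO libraries 55.1 and 58.2%, while follicular WT averaged 89.8% and follicular Tet3KO 94.0%. These levels chose the tiles and are given as a description. The test assumes the same spread in both stages, and the spread was larger in the pro-B libraries, as given above.

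Tiles whose methylation changes between the stages were then read in Tet3KO. They were chosen in Tet2KO libraries, which enter neither side of the comparison, a choice added after the data were seen. Limma called 34 of 165224 members lower in follicular than in pro-B Tet2KO (0.0206%) and 67 higher (0.0406%). At the 34 tiles pro-B WT averaged 75.3% ± 2.17 (SD, n = 3) and both Tet3KO libraries lay above all WT libraries, by 3.72 points with pairs from 1.25 to 6.14 points (exact permutation p = 0.2). At the 67 tiles pro-B WT averaged 30.1% and Tet3KO 30.3%, with overlap (exact permutation p = 0.7).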

How the data were processed

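The values deposited by the authors are methylation fractions from 0 to 1 per 100 bp tile and library, per the file headers, without read counts. They are printed here in percent. Per the submitters' processing notes, the tools were Trim Galore and methylKit and the builds mm9 and hg19. The aligner and coverage minimum are not given in the sources used here. Chromosome 1 tiles reach 197193600, past the end of later mouse builds, and coordinates were left in mm9. Levels were fitted with limma 3.58.1 in R 4.3.3 (with data.table, version 1.17.8), with 8 groups over 23 libraries, all but library 8, a trended prior and at most 15 residual degrees of freedom. Missing values were left out per tile and none was imputed. A tile counted as called with an adjusted p (Benjamini-Hochberg) under 0.05 and a difference of at least 20 points. Set means were compared by exact permutation of libraries. Named regions are called tiles joined within 500 bp, with at least 2 tiles and no overlap, ranked by difference, up to 12 a direction, filled with single tiles to 6. For the other contrasts 3 a direction were allowed, and 8 for follicular DKO. The members, lists and tests were chosen with earlier results of these data known. The test was tried on simulated data. The 16 RNA samples were not used. Alternatives were the fitted libraries, the logit scale, library centring, the size threshold, sex, completeness, library 8 and leaving out each library.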

Additional observations from a re-analysis of the deposited data

Results flagged for a closer look

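The Tet3KO difference was called as unlike between the stages at some tiles, by a limma interaction test of pro-B Tet3KO minus WT against follicular Tet3KO minus WT. The test assumes the same spread in both stages, and the spread was larger in the pro-B libraries. The interaction was called higher in pro-B cells at 12 tiles (0.00729% of 164541) and lower at 82 tiles (0.0498%). At the 82 tiles pro-B WT averaged 96.6% and pro-B Tet3KO libraries 55.1 and 58.2%, while follicular WT averaged 89.8% and follicular Tet3KO 94.0%. At the 12 tiles pro-B WT averaged 47.4% and pro-B Tet3KO 77.8 and 81.4%, while follicular WT averaged 68.6% and follicular Tet3KO 62.6%. None of these tiles formed a region of at least 2 tiles. Without Tet3KO library 7 the counts were 556 and 1791, and without library 9 they were 188 and 1142.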

How the results depend on the processing

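Counts are given as higher and lower tiles. With pro-B libraries alone they were 9 and 41 for Tet3KO against WT, 10 and 34 for Tet3KO against Tet2KO, and 46 and 10 for DKO against Tet3KO. With only the groups of each contrast they were 8 and 31, 2 and 14, 10 and 0, and 4 and 45 for the stage interaction. On the logit scale they were 239 and 243 against WT, 75 and 100 against Tet2KO, and 29 and 34 for the interaction. At 30 points they were 96 and 208 against WT, 31 higher against Tet2KO, 39 lower for DKO against Tet3KO, and 6 higher for the interaction. Over tiles with values in all 23 libraries they were 94 and 158, 24 and 112, 196 and 32, and 4 and 39 in the same order. With sex added the counts against Tet2KO were 21 and 104. Leaving out each library gave 295 to 1188 and 306 to 2386 against WT, 44 to 784 and 166 to 2278 against Tet2KO, 216 to 2422 and 80 to 754 for DKO against Tet3KO, and 7 to 556 and 69 to 1791 for the interaction. The highest of each of these came without Tet3KO library 7. The cause of these shifts was not tested. No paired analysis was possible because the compared groups share no replicate numbers, and the labels tie no pro-B library to a follicular library of the same mouse.

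Differences of mean level near 0 changed sign. Leaving out each library gave -0.0399 to 0.466 points over all tiles, -0.741 to 2.05 over intermediate, 0.115 to 0.405 over low (all above 0), -0.266 to 0.0961 over high, -0.0459 to 0.193 over dense and -0.130 to 0.891 over isolated tiles. The median over high tiles gave 0.894 points, isolated tiles with no neighbour -0.816 points, and library 8, added at the intermediate tiles it covers, -0.233 points. The follicular difference at lower tiles called with pro-B libraries alone (35 tiles, added after the data were seen) was -0.269 points. The differences at tiles raised in follicular DKO and in follicular Tet3KO kept their sign in every alternative run. Chosen by a fit of follicular libraries alone, those sets held 400 and 11 tiles, with differences of 11.4 and 22.5 points. The depth behind a single tile is unknown, and its precision could not be given.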

Other observations

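By chromosome, the Tet3KO mean was above the WT mean on each of the 19 autosomes, by 0.0460 to 0.378 points, and the libraries overlapped on all of them. The chromosomes share libraries and are not replicates.

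In all, 1 higher and 9 lower tiles were called in the fit over all groups and in each of 11 other fits. The higher tile, chr19:23833801-23833900, read 0 in all WT, Tet2KO and DKO pro-B libraries and 26.5 and 28.1% in Tet3KO libraries 7 and 9, and 0 in the 3 follicular Tet3KO libraries. Of the lower tiles, chr7:6141801-6141900 had the largest difference, with WT at 100% in all 3 libraries and Tet3KO at 40 and 45.5%, and follicular Tet3KO at 92.5 to 100%.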
